A study of Drosophila mettleri with 18 samples.

Results

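Larvae of Drosophila mettleri from Santa Catalina Island and from the Sonoran population were compared on a single food, saguaro cactus, by RNA sequencing. The members are 6 of the 18 libraries of the series, chosen by their labels alone: C-M, C-7 and C-9 from Santa Catalina and T-22, T-27 and T-28 from the Sonoran population, 3 strains each, all reared on saguaro. Every library came from 10 pooled larvae aged 8 days, so a strain is a single pool on this food and is the unit of replication. The remaining 12 libraries hold the same 6 strains on an instant Drosophila medium (lab food) and on coastal prickly pear cactus, and serve for comparison. The labels give no treatment other than food, and no sex for the larvae. Nothing in the labels says how many wild flies founded each strain. A p-value here reflects how far strains of 1 population differ on the same food. In the main fit that spread is estimated per gene over all 6 groups of the series, not on saguaro alone. Pool and library variation cannot be told apart from it.

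As background, D. mettleri is a desert fly whose larvae live in soil wetted by rotting cactus. In the Sonoran Desert it uses columnar cacti, saguaro among them, and on Santa Catalina Island, where columnar cacti do not grow, it uses prickly pear. Saguaro tissue carries alkaloids that are toxic to many other Drosophila species. The comparison thus sets strains from an area with saguaro against strains from an island without it, on the same saguaro food. The deposited table names each row by a de novo assembly code and does not pair it with a gene name, so no function can be given. Each row is an assembled gene, and the first part of its code is its component, a group of related sequences that the assembler kept together. No more than 2 genes are named in each direction per comparison, and other genes are described by their rank. Levels are counts scaled to a common library size (CPM) after TMM scaling, which corrects library totals for differences in composition. They are not divided by gene length, so a level is compared between libraries and not between genes.

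The 6 saguaro libraries did not group by population. On the first principal component of log2 CPM, with 62.0% of the variance, C-M stood alone at -138 and the other 5 lay between -19.5 and 56.5. C-7 lay at 44.6, among the Sonoran strains at 28.5, 56.5 and 27.7. The second component, with 17.8% of the variance, placed C-9 at 65.4 and T-28 at -46.4. Correlations of log2 CPM were 0.906 to 0.941 among the Santa Catalina libraries, 0.941 to 0.968 among the Sonoran ones and 0.885 to 0.970 between the populations. The Santa Catalina group on saguaro was the most dispersed of the 6 groups of the series, with a median SD between strains of 0.47 log2 units, against 0.32 in the Sonoran group on saguaro and 0.24 to 0.30 in the other 4 groups. C-M is part of that median of 0.47, and the spread without C-M was not computed.

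**Figure D1:**
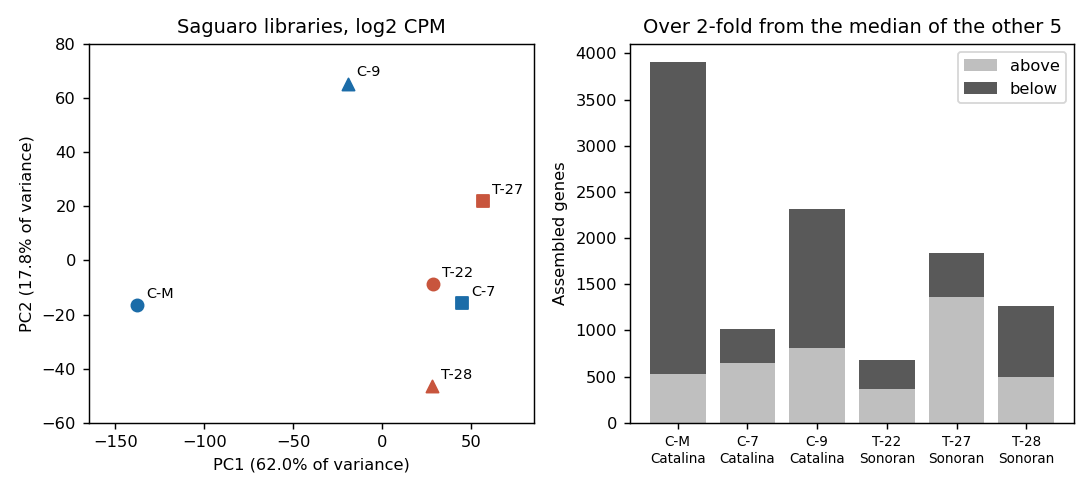
Left, the 6 saguaro libraries on the first and second principal components of log2 CPM (blue, Santa Catalina; red, Sonoran), with C-M at -138 on the first and the others between -19.5 and 56.5. Right, the number of assembled genes in each library that were more than 2-fold above (light) or below (dark) the median of the other 5, which was 3907 in C-M and 685 to 2312 in the others.

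C-M on saguaro had 3384 genes more than 2-fold below the median of the other 5 libraries and 523 more than 2-fold above it, together 31.2% of the 12514 genes tested. It was the lowest of the 6 libraries for 39.8% of genes. It also had a count for only 11207 genes when every library was reduced to the total of the smallest, against 13170 to 13908 in the other 5. Its correlation with its own strain on lab food was 0.878, whereas that of C-7 and C-9 with theirs was 0.978 and 0.980. With the own strain on prickly pear it was 0.852 for C-M, 0.980 for C-7 and 0.826 for C-9, so on that measure C-M did not stand apart from C-9. The calls on saguaro and the medians by level are therefore also given without C-M. Depth went with population: totals were 13449136 to 15418605 counts in Santa Catalina and 6769906 to 12035169 in Sonoran, with T-27 the smallest. The ranges did not overlap, and the exact permutation p of 0.1 is the smallest that 3 against 3 libraries can give. With all libraries thinned to 6769906 counts, 13 genes were called between the populations, all of them among the 17 described next.

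On saguaro, 17 of 12514 genes differed between the populations, 8 higher in Santa Catalina (0.0639% of those tested) and 9 higher in Sonoran (0.0719%; edgeR quasi-likelihood test, Benjamini-Hochberg adjusted p below 0.05). Together they are 0.136% of the genes tested, and the count ran from 6 to 28 when 1 saguaro library was left out. An unadjusted p below 0.05 was reached by 745 genes, or 5.95%. Log2 fold changes, Santa Catalina over Sonoran, ran from 0.89 to 7.14 in the first set and from -0.83 to -7.07 in the second, and 14 of the 17 were larger than 2 log2 units in size. The levels of all 17 did not overlap between the populations. The share of genes tested whose libraries did not overlap was 8.58%, or 1074 genes, 466 of them higher in Santa Catalina (3.72%) and 608 lower (4.86%). The median standard error of a log2 fold change over all genes was 0.34. The last gene called had an adjusted p of 0.0497 and the next outside the limit one of 0.0536, with 10 genes between 0.05 and 0.1.

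**Figure D2:**
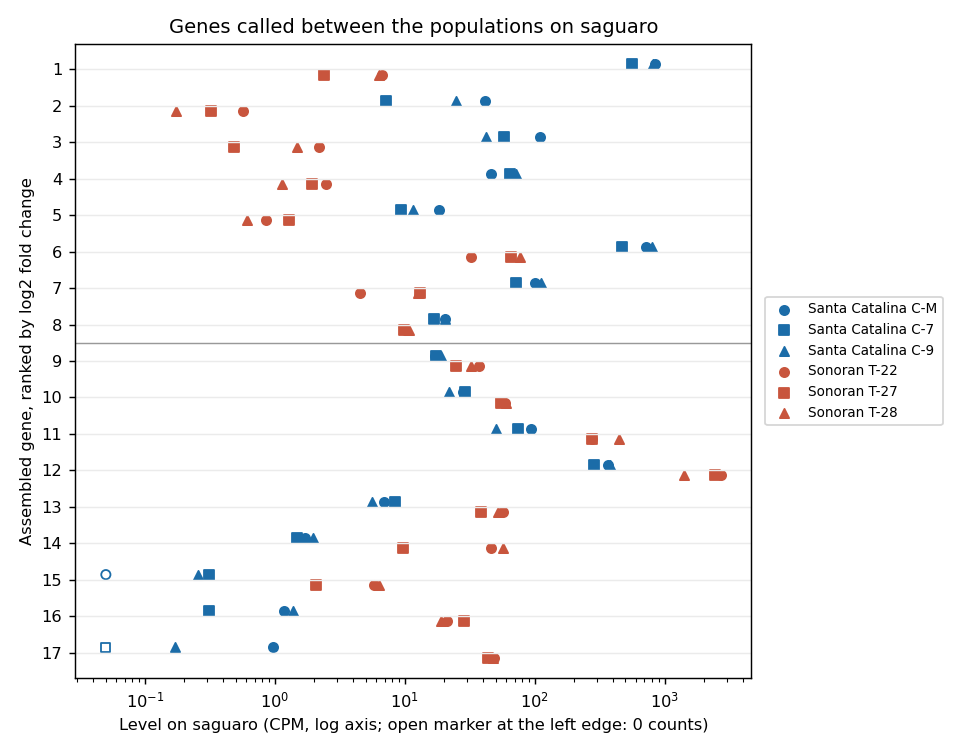
Levels in CPM (log axis) of the 17 called genes in the 6 saguaro libraries, ranked from the largest rise in Santa Catalina (1) to the largest fall (17), with blue for Santa Catalina strains, red for Sonoran strains and open markers for 0 counts. In every row the 3 blue and the 3 red markers occupy separate ranges, and rows 8 and 9, at log2 fold changes of 0.89 and -0.83, lie closest together.

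The largest rise in Santa Catalina was that of comp37185_c1. It had 842 CPM in C-M, 561 in C-7 and 817 in C-9, and 6.73 in T-22, 2.40 in T-27 and 6.37 in T-28. Its mean was 740.0 ± 156 against 5.17 ± 2.40 CPM (SD, n = 3). The log2 fold change was 7.14, with an SE of 0.42 and an adjusted p of 6.26e-07 (edgeR). Every Santa Catalina strain carried it abundantly and every Sonoran strain at a low but counted level of 15 to 73 counts. The call held when any saguaro library was left out. 

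The second was comp27976_c0, the only gene of its component. Its levels were 41.2 CPM in C-M, 7.23 in C-7 and 24.6 in C-9, against 0.569 in T-22, 0.320 in T-27 and 0.174 in T-28. The mean was 24.3 ± 17 against 0.355 ± 0.199 CPM (SD, n = 3), and the log2 fold change 6.06, with an SE of 1.03 (adjusted p = 0.0298, edgeR). C-M was the highest Santa Catalina strain and C-7 the lowest, and the Sonoran levels rest on 6, 2 and 2 counts. Without C-M the log2 fold change was 5.47 and the adjusted p 0.0951 (edgeR), so the call was lost. It was also lost in 4 of the 5 other fits that left out a saguaro library.

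The largest fall in Santa Catalina was that of comp37831_c5. It had 9, 0 and 2 counts in C-M, C-7 and C-9, that is 0.965, 0 and 0.171 CPM. In T-22, T-27 and T-28 it had 48.8, 43.6 and 47.4 CPM, so the Sonoran strains were nearly alike. Santa Catalina was lower by a log2 fold change of -7.07 (SE 0.67; edgeR adjusted p = 0.00133). Without C-M, which held 9 of the 11 Santa Catalina counts, it was -8.99 (adjusted p = 0.000207, edgeR). Next came comp34913_c0, alone in its component, at 1.18, 0.311 and 1.37 CPM in C-M, C-7 and C-9 and 21.2, 28.5 and 19.0 CPM in T-22, T-27 and T-28. Its mean was 0.954 ± 0.565 against 22.9 ± 4.98 CPM (SD, n = 3), with a log2 fold change of -4.60 (SE 0.64; edgeR adjusted p = 0.00669). The groups stood well apart, and no left-out library ended either call.

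Among the other 6 genes higher in Santa Catalina, comp37831_c13 ranked next after the 2 named above, with 110.1, 58.2 and 42.3 CPM in C-M, C-7 and C-9 against 2.18, 0.481 and 1.48 in T-22, T-27 and T-28 (log2 fold change 5.58, SE 0.52; edgeR adjusted p = 0.000108). Those at ranks 4 and 5, each alone in its component, averaged 60.9 ± 12.9 against 1.84 ± 0.670 CPM and 13.2 ± 4.71 against 0.915 ± 0.340 CPM (SD, n = 3). Those at ranks 6 and 7 belong to 1 component of 3 genes. They averaged 663 ± 174 against 58.2 ± 22.9 CPM and 94.7 ± 20.3 against 10.1 ± 4.80 CPM (SD, n = 3), and in both T-22 was the lowest library and C-9 the highest. These genes may be pieces or copies of 1 gene, so they are not separate evidence. The remaining gene of that component averaged 104 CPM in Santa Catalina and 96.3 in Sonoran and was not called (log2 fold change 0.12, adjusted p = 0.947, edgeR). The gene at rank 8 differed least, with 19.1 ± 2.06 against 10.3 ± 0.477 CPM (SD, n = 3) and a log2 fold change of 0.89 (edgeR adjusted p = 0.0412).

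Among the genes higher in Sonoran, the most counts went to comp39297_c4, with 2707 CPM in T-22, 2465 in T-27 and 1409 in T-28 against 370 in C-M, 285 in C-7 and 379 in C-9. Its mean was 2194 ± 690 against 345 ± 52.1 CPM (SD, n = 3), and the fitted log2 difference -2.67 (SE 0.30; edgeR adjusted p = 0.000764). T-28 was the lowest Sonoran strain, yet more than 3 times the highest Santa Catalina strain. comp37687_c1 had 57.2, 38.8 and 52.5 CPM in T-22, T-27 and T-28 against 6.97, 8.39 and 5.57 in C-M, C-7 and C-9 (log2 fold change -2.82, SE 0.18; edgeR adjusted p = 7.91e-07). Both calls held without any single saguaro library.

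The other 5 genes higher in Sonoran included a pair from a component of 12 genes, at ranks 14 and 15. The first of the pair had 46.3, 9.61 and 56.8 CPM in T-22, T-27 and T-28 and 1.48 to 1.97 CPM in Santa Catalina. The second had 5.78, 2.08 and 6.37 CPM in T-22, T-27 and T-28 and 0 to 0.311 CPM in Santa Catalina. In both, T-27 was the lowest Sonoran strain by more than 2-fold, so the pair varied together between the Sonoran strains. The other 8 tested genes of that component were not called, the largest of their fold changes being 0.43 log2 units. The remaining 3 genes, at ranks 9, 10 and 11, were moderate in size. They averaged 31.6 ± 6.31 against 17.8 ± 1.16 CPM, 58.4 ± 2.87 against 26.4 ± 3.73 CPM, and 335 ± 97.9 against 73.0 ± 22 CPM in Sonoran and Santa Catalina (SD, n = 3).

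In 2 components, 1 assembled gene was high in Santa Catalina and another in Sonoran, while the component totals overlapped. Without their sequences, separate genes and versions or pieces of 1 gene cannot be told apart. comp37831_c13 and comp37831_c5 belong to 1 component of 8 genes and were called in opposite directions. Together they summed to 70.6 ± 35.9 CPM in Santa Catalina and 48.0 ± 3.56 CPM in Sonoran (SD, n = 3). The whole component summed to 1180 ± 109 against 933 ± 252 CPM, which differed by 0.34 log2 units (SE 0.32; adjusted p = 0.756, edgeR on component sums), and its other 6 genes were not called.

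In the component of comp37185_c1, which has 4 genes, another gene ran the opposite way. It was picked out after its values were seen. It had 808, 830 and 664 CPM in T-22, T-27 and T-28, against 6.22 in C-M and 4.63 in C-9, but 163 in C-7. With C-7 between the 2 levels, its log2 fold change of -3.72 (SE 1.32) was not called (adjusted p = 0.763, edgeR). The sum of the 2 genes was 798 ± 65.5 CPM in Santa Catalina and 772 ± 88.8 in Sonoran (SD, n = 3). Within that sum the second gene held 22.5% in C-7 on saguaro, 0.734% in C-M and 0.563% in C-9, and 99.1% to 99.7% in the Sonoran strains. On lab food and prickly pear it held 4.67% and 6.67% in C-7, the largest share among the Santa Catalina strains on each food. The component total differed by 0.02 log2 units (SE 0.28; adjusted p = 0.987, edgeR on component sums).

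**Figure D3:**
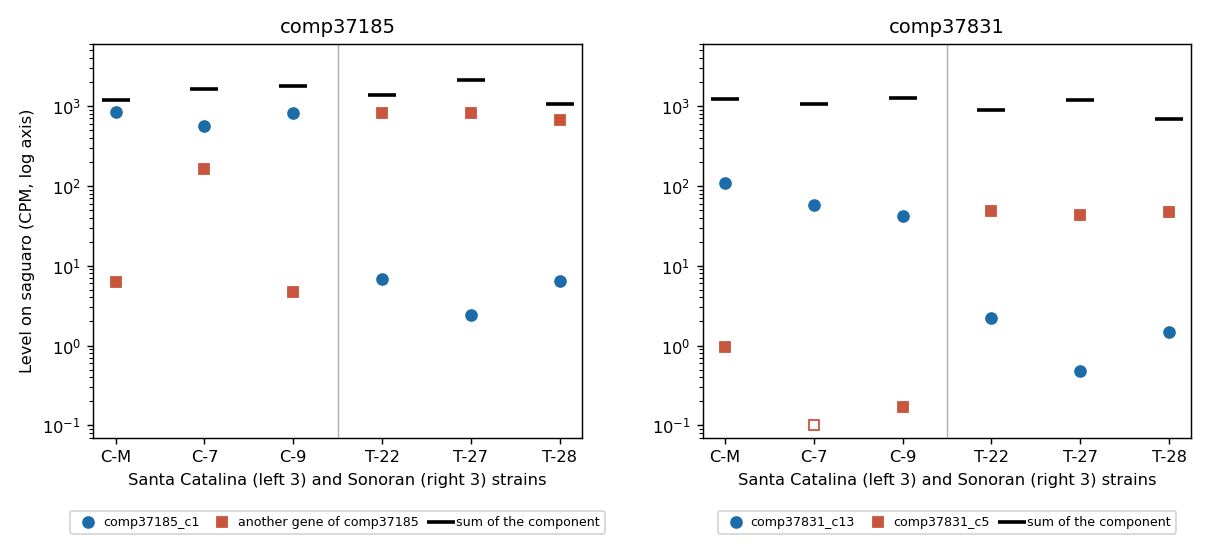
Levels in CPM (log axis) on saguaro of 2 genes of comp37185 and 2 of comp37831 in each strain, with black bars for the sum of all genes of the component and an open marker for 0 counts. Blue genes are high in the 3 Santa Catalina strains and red genes in the 3 Sonoran strains, C-7 holds 163 CPM of the red gene of comp37185, and the black bars of the populations overlap.

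When counts were summed per component before the fit, an alternative added after seeing the data, 3 of 9270 components were called on saguaro, all higher in Sonoran. They were the components of comp34913_c0, comp39297_c4 and the gene at rank 10. The genes at ranks 2, 4 and 5, each alone in its component, differed by 6.05, 5.04 and 3.87 log2 units. The components of ranks 6 and 7, of rank 11 and of rank 9 differed by 2.38, -1.44 and -0.72. None of these sums was called, although the differences remained (adjusted p = 0.0593 to 0.0935, edgeR on component sums). Those of rank 8 and of ranks 14 and 15 differed by only 0.35 and -0.32 (adjusted p = 0.752 for both, edgeR on component sums). Of the 17 called genes, 5 were alone in their component and 12 lay in components of more than 1 gene, while 57.1% of all genes tested were alone in theirs. Reads can be divided between such genes when their sequences are nearly identical, so their separate levels are uncertain. The component of comp37687_c1 was likewise not called as a sum, at 192 ± 36.8 CPM in Santa Catalina and 219 ± 7.79 in Sonoran (SD, n = 3; adjusted p = 0.760, edgeR on component sums).

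The strains were next compared on the other foods, whose levels did not enter the fold changes on saguaro. Those libraries did enter the filter, the scaling and the estimate of spread behind the 17 calls. What follows is therefore not an independent check. The strains are also the same and add no new samples of a population. On prickly pear all 17 kept the direction they had on saguaro, and all 17 had no overlap between the populations in that direction. The share of all genes tested without overlap in their saguaro direction was 7.12% there, and 13.7% in either direction. On lab food 16 of the 17 kept it and 15 had no overlap in that direction, against 6.90% of all genes tested, and 20.4% in either direction. Their median difference in the saguaro direction was 3.89 log2 units on saguaro, which chose them, 3.14 on lab food and 2.44 on prickly pear, medians that do not move when comp37831_c5 is set at the bound that its 0 counts allow. Over all genes tested the median in the saguaro direction was -0.12 on lab food and 0.02 on prickly pear.

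The populations differed in 16 genes on lab food, 0.128% of those tested, and in 5 on prickly pear, 0.0400% (edgeR, adjusted p below 0.05). Without C-9 on lab food that count was 534, and without C-7, T-22, T-27 or T-28 it was 5, 7, 8 and 5, while without C-9 on prickly pear it was 11. The 8 genes called on both saguaro and lab food were 47.1% of the saguaro calls and 50% of the lab food calls. The 4 called on both saguaro and prickly pear were 23.5% and 80% of theirs. All shared calls had the same direction, 4 genes were called on all 3 foods, and 9 were called on saguaro alone. Not being called on another food is no evidence of a difference between foods, which is tested further on. Across all genes, the population fold changes on saguaro had a Pearson r of -0.296 with those on lab food and 0.209 with those on prickly pear, a description over genes measured in the same strains.

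**Figure D4:**
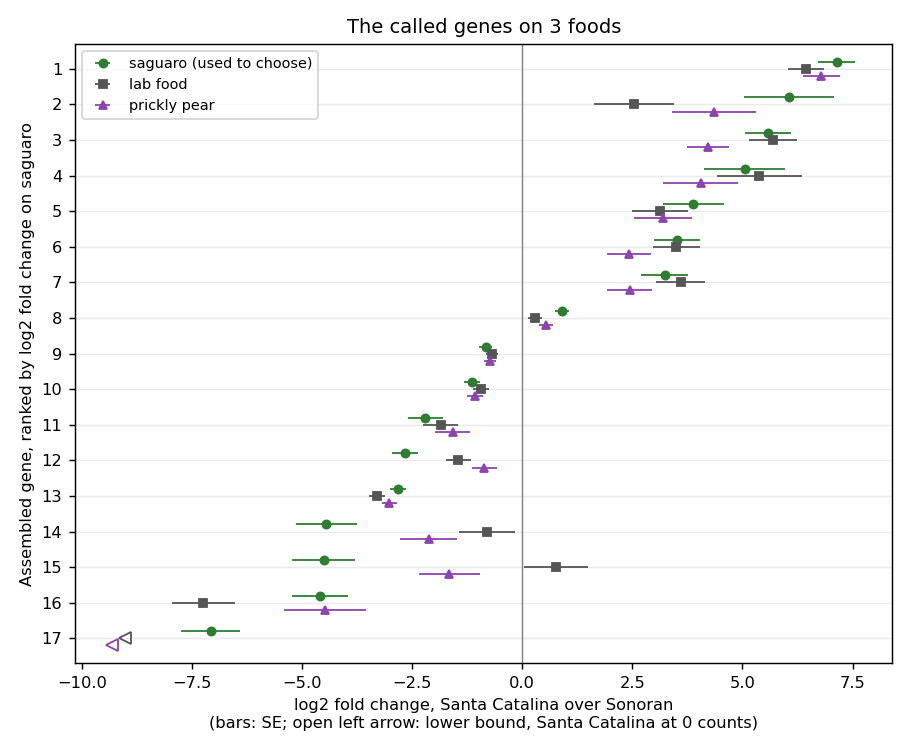
Log2 fold change of Santa Catalina over Sonoran, with SE, for the 17 genes called on saguaro (green circles) and the same genes on lab food (grey squares) and prickly pear (purple triangles), ranked as before. Open left arrows mark lower bounds where Santa Catalina had 0 counts, and rank 15 is the 1 gene whose lab food value, 0.76, lies on the other side of 0.

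comp37185_c1 was high in Santa Catalina on every food, at 844 ± 176 against 9.70 ± 3.11 CPM on lab food and 564 ± 28.7 against 5.09 ± 1.29 CPM on prickly pear (SD, n = 3). comp37831_c5 had 0 counts in all 6 Santa Catalina libraries on those foods. It was at least 521-fold lower than in Sonoran on lab food and at least 635-fold lower on prickly pear, against a floor of 3 counts over the 3 Santa Catalina libraries of a food. The 9 counts in C-M and 2 in C-9 on saguaro were thus the only ones in Santa Catalina. comp37687_c1 averaged 5.58 ± 0.462 against 55.1 ± 5.61 CPM on lab food and 5.38 ± 0.631 against 43.5 ± 0.723 CPM on prickly pear (SD, n = 3). Its log2 fold change on saguaro minus that on lab food was 0.48 (SE 0.24, adjusted p = 0.304, edgeR). Against prickly pear it was 0.19 (SE 0.24, adjusted p = 0.982, edgeR). Neither was called, which does not show that the foods were alike.

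comp34913_c0 had different Sonoran levels on the 3 foods. Its Sonoran mean was 61.1 ± 20.8 CPM on lab food, 22.9 ± 4.98 on saguaro and 1.49 ± 1.40 on prickly pear, and its Santa Catalina mean was 0.403 ± 0.240, 0.954 ± 0.565 and 0.0608 ± 0.0586 CPM (SD, n = 3). The populations were called apart on lab food (log2 fold change -7.25, adjusted p = 0.000149, edgeR) and on saguaro. On prickly pear the Santa Catalina level rests on 1, 2 and 0 counts. The log2 fold change there was -4.48 (SE 0.94), against -4.60 on saguaro, and was not called (adjusted p = 0.183, edgeR). The difference between the 2 foods was -0.12 log2 units (SE 1.90, adjusted p = 0.998, edgeR), and at that SE it does not show that the foods were alike. comp27976_c0 had its highest Santa Catalina mean on saguaro, 24.3 CPM, against 3.68 ± 2.96 on lab food and 6.64 ± 4.79 on prickly pear (SD, n = 3), while its Sonoran means stayed between 0.328 and 0.622 CPM. comp39297_c4 averaged 739 ± 168 CPM in Sonoran on lab food and 508 ± 183 on prickly pear (SD, n = 3), below its 2194 CPM on saguaro, while its Santa Catalina means lay between 271 and 345 CPM on all 3 foods.

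Whether the population difference on saguaro differed from that on the other foods was tested directly, as an interaction over all 18 libraries. No gene was called for saguaro against lab food (0%) by edgeR, with 2300 genes (18.4%) at an unadjusted p below 0.05, while DESeq2 called 330, of which 41 were relatively higher in Santa Catalina on saguaro and 289 relatively lower. Leaving out C-7 on all foods gave 741 edgeR calls, 711 of them relatively lower in Santa Catalina, and leaving out any other strain gave 0. No gene was called for saguaro against prickly pear (0%) by edgeR or DESeq2, with 248 (1.98%) and 397 genes at an unadjusted p below 0.05. Among the 17 called genes, 7 had an unadjusted interaction p below 0.05 against lab food and 4 against prickly pear (edgeR), and DESeq2 called 2 of them against lab food. The 17 were chosen for their difference in the same saguaro libraries that enter this test. These counts therefore cannot be weighed against the shares over all genes.

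For comp39297_c4 the population difference on saguaro differed from that on prickly pear by -1.80 log2 units (SE 0.40, unadjusted p = 0.000434, adjusted p = 0.982, edgeR) and from that on lab food by -1.22 (SE 0.40, adjusted p = 0.201, edgeR). For the pair at ranks 14 and 15 the shift from lab food was -3.65 (SE 0.91) and -5.27 log2 units (SE 1.02). Their adjusted p-values were 0.201 with edgeR, which called neither, and 0.0196 and 0.00650 with DESeq2, which called both. Without C-7, edgeR gave 0.0503 and 0.0347, but without C-M it gave 0.484 for both. Leaving out any strain other than C-7 gave 0.138 to 0.533 for the pair (edgeR). Outside the 17, the smallest interaction p-values against lab food among genes of at least 5 CPM with no overlap on saguaro belonged to comp38520_c1 (-1.65 log2 units, SE 0.34) and comp18483_c0 (0.63, SE 0.14), each with an adjusted p of 0.201 (edgeR). DESeq2 called both (adjusted p = 0.0117 each), and so did edgeR without C-7 (0.0347 and 0.0417), while without any other strain edgeR gave 0.138 to 0.533. comp38520_c1 averaged 5.49 ± 0.581 CPM in Santa Catalina and 12.8 ± 1.73 in Sonoran on saguaro, and 7.42 ± 1.37 and 5.47 ± 0.464 CPM on lab food (SD, n = 3). comp18483_c0 averaged 26.7 ± 1.28 against 20.7 ± 0.890 CPM on saguaro and 20.4 ± 0.699 against 24.4 ± 0.455 CPM on lab food (SD, n = 3).

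Over all genes tested on saguaro, direction went with level. Genes under 1 CPM had a median log2 fold change of -0.54 and genes of 1 to 5 CPM one of -0.33, whereas it was 0.14 at 50 to 500 CPM and 0.22 at 500 CPM or more. Of the 1862 genes under 1 CPM, 174 lay wholly lower in Santa Catalina without overlap and 22 wholly higher. Of the 300 genes at 500 CPM or more, 3 lay wholly lower and 22 wholly higher. Without C-M the medians were -0.22, -0.14, 0.08 and 0.14 in the same 4 classes, so the lean was smaller without that library, and the part that depth has in it was not tested. With library totals alone the median over all genes moved from -0.06 to -0.33, and the class medians at 50 to 500 CPM and at 500 CPM or more were then -0.14 and -0.07, still above that overall median. The direction of the abundant classes is therefore relative to the scaling, while all 17 called genes kept their direction under it.

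The number of calls changed with the libraries in the fit. Each fit below with a library left out also has fewer libraries, and what that alone does was not tested. Leaving out 1 saguaro library gave 6 calls without C-M, 28 without C-7, 6 without C-9, 6 without T-22, 10 without T-27 and 7 without T-28 (edgeR). The 6 genes called in every one of these fits were comp37185_c1, comp37831_c13, comp37831_c5, comp34913_c0, comp37687_c1 and comp39297_c4. The other 11 of the 17 lost the call without C-M, with adjusted p-values of 0.0566 to 0.162. These fits kept the 12 libraries of the other foods. With only the 6 saguaro libraries in the fit, 3 genes were called, all among the 17. They were comp37185_c1, comp37687_c1 and the gene at rank 4, which lost its call whichever saguaro library was left out. In that fit comp37831_c13, comp37831_c5 and comp34913_c0 had an adjusted p of 0.131 and comp39297_c4 one of 0.149 (edgeR). DESeq2 on all libraries called 56 genes, which included all 17. No gene had 0 counts in all 3 saguaro libraries of a population and at least 10 in each of the other's.

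**Figure D5:**
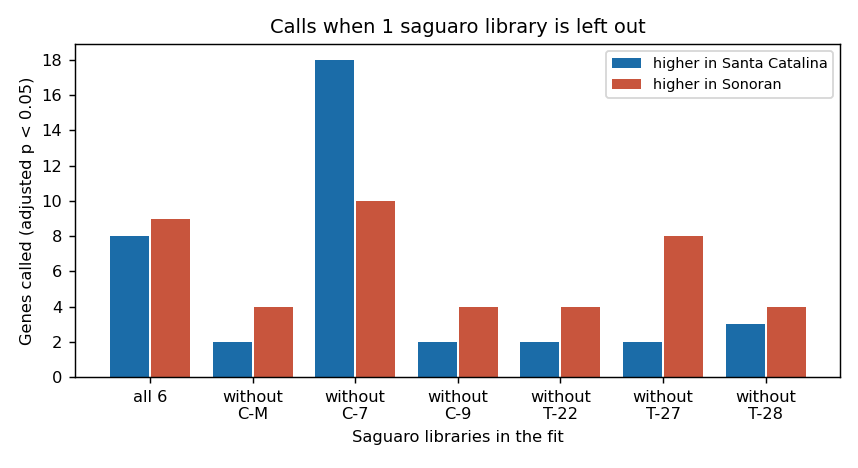
Number of genes called between the populations on saguaro (adjusted p below 0.05, edgeR) with all 6 saguaro libraries and with 1 of them left out, in blue where higher in Santa Catalina and in red where higher in Sonoran. The count falls from 17 to between 6 and 10 without any library but C-7, and rises to 28 without C-7.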

How the data were processed

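The authors deposited whole-number counts per assembled gene for 18 libraries. Per the series' design text, Trinity built the transcripts with no reference genome and each gene's sequences were merged into 1 count. How reads were counted is not given in the sources used here, and the submitters' processing notes name edgeR. The table holds 15947 genes in 12153 components, and every value column was matched to 1 library by its label.

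The analysis used R 4.3.3 and edgeR 4.0.16. A filter on low counts (filterByExpr on the 6 groups) left 12514 genes, and TMM factors scaled the totals. All 18 libraries entered 1 model with a mean per group, leaving 12 residual degrees of freedom. Each comparison is a contrast in it, tested with the quasi-likelihood F test and called at a Benjamini-Hochberg adjusted p below 0.05. The SE is the size of the fold change over the root of F. Libraries of a strain on other foods are not independent, so these p-values may be too small. The shared spread may also understate that of the Santa Catalina group on saguaro. Its median SD was 0.47 log2 units, the largest of the 6 groups. Principal components and correlations used log2 CPM with a prior count of 2. Depth was 6769906 to 16115982 counts, and floors cover counting error only. The code was tested on simulated data.

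The rule for names takes, per comparison, the 2 called genes that differ most in each direction among those whose libraries do not overlap and whose higher group averages 5 CPM or more; where too few were called, those with the smallest p. The comparison, the rule and the tests were chosen with earlier results of these data known. Alternatives were RLE factors, library totals, no filter, thinned counts, DESeq2 1.42.0, only the libraries compared, blocks, and leaving out each library. Replicates 1, 2 and 3 are C-M, C-7 and C-9, and T-22, T-27 and T-28. In the labels, the numbers pair nothing between the populations. Within a population, no saguaro library repeated another: chi-square per degree of freedom was at least 49.98.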

Additional observations from a re-analysis of the deposited data

Results flagged for a closer look

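Among the genes called on saguaro or named for an interaction, 7 moved one way between saguaro and another food in every Santa Catalina strain and the other way in every Sonoran strain. With edgeR the test of that difference against lab food passed for none of them (adjusted p 0.201 to 0.204), whereas DESeq2 called 4, comp18483_c0, comp14000_c0, comp35919_c0 and comp36509_c0 (adjusted p = 0.0117, 0.0139, 0.0103 and 0.0235). These 4 had been named for a small interaction p in the same counts, so neither the DESeq2 calls nor their opposite moves are separate evidence. Without C-7, edgeR called comp18483_c0 (adjusted p = 0.0417) and comp36509_c0 (0.0347). The log2 fold change of Santa Catalina over Sonoran on saguaro minus that on lab food was 3.52 for comp27976_c0, 1.88 for comp14000_c0, 0.63 for comp18483_c0 and 0.60 for the eighth-ranked called gene. It was 2.65 for comp34913_c0, which was higher in Sonoran on both foods and by less on saguaro (-4.60) than on lab food (-7.25). It was -5.27 for comp35919_c0 and -1.02 for comp36509_c0. For comp14000_c0 the same held against prickly pear, with a difference of 1.86 log2 units (adjusted p = 0.982, edgeR). Some of these moves rest on few counts. From lab food to saguaro, comp27976_c0 went from 8, 9 and 5 to 6, 2 and 2 counts in T-22, T-27 and T-28. comp34913_c0 went from 8, 2 and 6 to 11, 4 and 16 counts in C-M, C-7 and C-9. Over all 12514 genes tested, 575 moved up in every Santa Catalina strain and down in every Sonoran strain from lab food to saguaro and 979 the reverse; between prickly pear and saguaro these numbers were 77 and 52.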

How the results depend on the processing

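The 17 genes kept their direction under all 15 other settings tried for them, and none kept its call under every one. The 17 saguaro calls became 56 with DESeq2, 3 with only the saguaro libraries, 3 with component sums, 8 without both C-M and T-27 (added after seeing the data) and 6 to 28 with 1 library left out; RLE factors, library totals, no filter and thinned counts gave 19, 19, 15 and 13. For lab food, 16 calls became 528 with DESeq2, 9 when thinned, 6 with only those libraries, 2 with component sums and 5 to 534 with 1 left out. For prickly pear, 5 became 34 with DESeq2, 3 with only those libraries, 0 with component sums (276 at an unadjusted p below 0.05) and 4 to 11 with 1 left out. The interaction against lab food went from 0 to 330 with DESeq2 and 0 to 741 with 1 strain left out; that against prickly pear stayed at 0. Genes at 0 in a population on saguaro numbered 0 to 6 with 1 library left out. The causes were not tested.

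With the replicate number as a block, 0 genes were called on saguaro (227 at an unadjusted p below 0.05), 20 on lab food and 1 on prickly pear. With the mean of each group taken off the log2 CPM, same-numbered strains had correlations of 0.185, 0.149 and -0.337 on saguaro. They were 0.0145, 0.237 and 0.236 on lab food and -0.0310, 0.242 and 0.218 on prickly pear. The labels do not pair the numbers between the populations. Strain as a random block gave 13, 19 and 5 calls, and strain as a fixed block left both interactions at 0. Depth limits genes under 1 CPM, whose median SE was 0.76 log2 units.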
